A study of Rattus norvegicus with 6 samples.

Results

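The genes described here belong to the bone morphogenetic protein (BMP) pathway of the rat aorta. They are the ligand genes Bmp2, Bmp4 and Bmp6, the receptor genes Bmpr1a and Bmpr2, the antagonist gene Grem1 and the target genes Id1, Id2, Id3 and Id4. They were chosen by symbol: a row of the array belonged to a member if its annotation gave exactly 1 gene symbol equal to the listed name. Each of the 10 members had 1 such row, out of 14324 genes with a row of their own.

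The samples came from the aorta of male Fisher 344 rats aged 1 to 2 months. Day 0 samples were aortic rings taken straight after harvest, and day 1 samples were rings embedded in collagen gel and cultured in serum-free EBM medium. Each group had 3 biological replicates, and each replicate combined 4 to 6 rings or ring cultures before RNA extraction and had its own Affymetrix whole-transcript array. Whether 2 pools could hold rings of the same rat is not in the labels. The p-values therefore reflect the variation among these pools only, and the number of arrays limits the precision. The groups differ in time, gel, medium and removal from the animal at once, and these cannot be told apart.

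BMPs are secreted dimers of the TGF-beta superfamily. They bind a complex of type I receptors, such as the product of Bmpr1a, and type II receptors, such as that of Bmpr2, which phosphorylates the transcription factors Smad1, Smad5 and Smad9. With Smad4 these enter the nucleus and switch on targets, of which the Id genes are the best known. Id proteins have a helix-loop-helix domain but no DNA-binding basic region, and hold E proteins and related factors away from DNA. Secreted antagonists such as Gremlin 1, the product of Grem1, bind the ligands outside the cell. In vessels the pathway is known for its part in endothelial quiescence and sprouting and in the phenotype of smooth muscle, and loss of BMPR2 function causes heritable pulmonary arterial hypertension in people.

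Values are log2 array values, on which a difference of 1 is a 2-fold change, and changes are day 1 minus day 0. Values after ± are standard errors of the change unless given as SD. Groups were compared with limma over all 14324 genes, two-sided, with Benjamini-Hochberg adjustment and a threshold of 0.05 on the adjusted p. Of the 10 members 9 passed, 3 rising and 6 falling. Of all genes tested 48.3% passed, 27.6% rising and 20.7% falling. The 2 groups of arrays did not overlap in the same 9 members, against 56.9% of all genes. Of the members 4 both passed and changed at least 2-fold, as did 8.24% of all genes (4.13% higher, 4.11% lower). The median change was -0.51 over the members and -0.01 over all genes. With so many genes past the threshold, a call alone sets no member apart, and the size of each change is given.

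**Figure D1:**
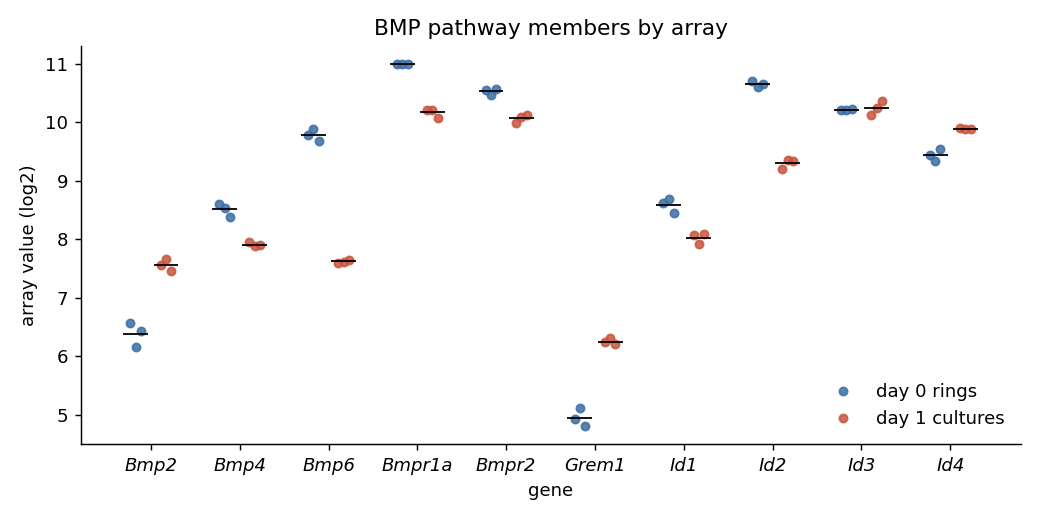
Array values (log2, vertical axis) of the 10 members (horizontal axis) on the 3 day 0 and the 3 day 1 arrays. Each array was run on a pool of 4 to 6 rings or ring cultures. Points are single arrays and bars are group means; the groups overlap in Id3 and are apart in the other 9 genes.

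The 3 ligand genes changed in different directions. Bmp6, which in many vascular beds is made by endothelium, fell most of all members. Its day 0 values were 9.79, 9.89 and 9.68, and its day 1 values were 7.60, 7.62 and 7.65. Every day 1 array lay at least 2.03 below every day 0 array. The change of -2.16 ± 0.07 (95% interval -2.32 to -2.00, adjusted p = 2.52e-07) is a 4.47-fold lower level, and 1.48% of all genes changed by more. Bmp4, a ligand also induced in endothelium by disturbed flow, stood at 8.61, 8.54 and 8.38 on day 0 and at 7.95, 7.88 and 7.90 on day 1. All of its day 1 arrays were below all of its day 0 arrays, with a change of -0.60 ± 0.07 (adjusted p = 2.88e-04). Bmp2, a ligand close to BMP4 in sequence and known for inducing bone, rose. It stood at 6.57, 6.17 and 6.43 on day 0 and at 7.57, 7.66 and 7.47 on day 1. The lowest day 1 array was 0.90 above the highest day 0 array. Its change of 1.18 ± 0.11 (95% interval 0.93 to 1.43, adjusted p = 5.09e-05) is a 2.26-fold rise.

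Both receptor genes fell. Bmpr1a, which encodes the type I receptor kinase ALK3, had nearly equal day 0 values of 11.00, 10.99 and 11.00, and day 1 values of 10.22, 10.22 and 10.08. The gap between the groups was 0.77, against a range of 0.14 among the day 1 arrays. The change was -0.82 ± 0.06 (adjusted p = 2.05e-05), a 1.77-fold lower level. Bmpr2, the type II receptor gene, stood at 10.56, 10.47 and 10.58 on day 0 and at 9.99, 10.10 and 10.13 on day 1. Its groups did not overlap either, and its change was -0.47 ± 0.07 (adjusted p = 6.33e-04), a 1.38-fold lower level.

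Grem1, the antagonist gene, had the largest rise of the members. Its day 0 values of 4.93, 5.13 and 4.81 were dim, and its day 1 values were 6.24, 6.31 and 6.21. The lowest day 1 array was 1.08 above the highest day 0 array. The change was 1.30 ± 0.09 (95% interval 1.09 to 1.50, adjusted p = 1.03e-05), a 2.46-fold rise. In dim rows background can take a larger share of the signal, and how it was corrected is not given in the sources. The fold of Grem1 is therefore less certain, and its bias was not tested. Day 1 arrays agreed closely in all 10 members, with the widest range, 0.24, in Id3.

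**Figure D2:**
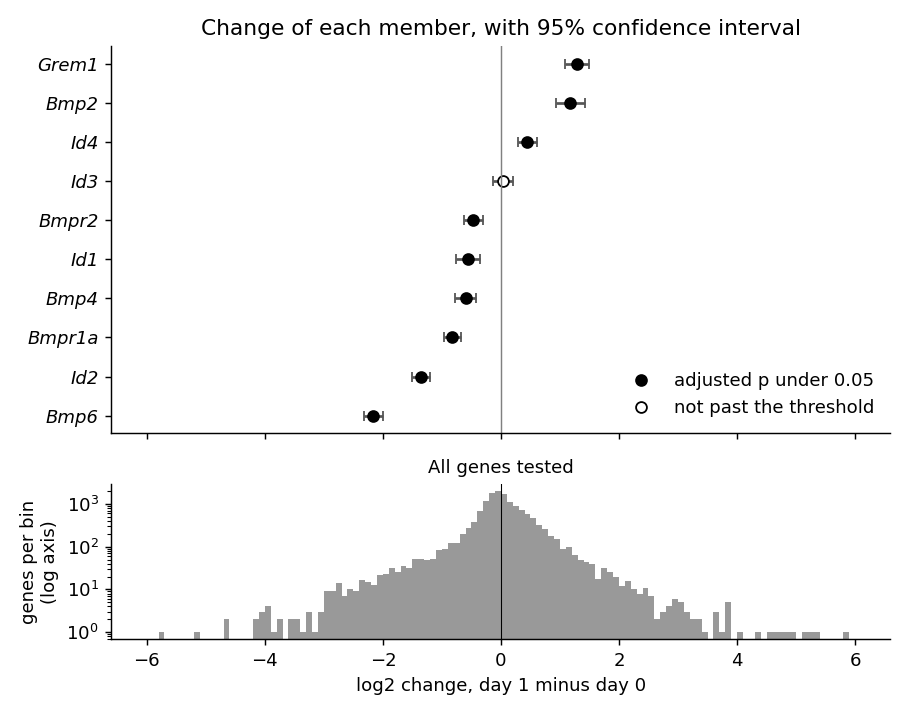
Upper panel: log2 change of each member (day 1 minus day 0) with its 95% confidence interval from limma, filled where the adjusted p was under 0.05. Lower panel: the changes of all 14324 genes on the same axis, with a log scale of counts. Bmp6 at -2.16 and Grem1 at 1.30 are the ends of the members' range, and the interval of Id3 spans 0.

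The 4 Id genes, all listed as targets of one pathway, did not change together. Id2 fell most. Its day 0 values were 10.71, 10.60 and 10.65, and its day 1 values were 9.20, 9.35 and 9.35. The groups were 1.24 apart, and the change of -1.35 ± 0.07 (adjusted p = 2.18e-06) is a 2.56-fold lower level. Id1, the member most often used as a readout of BMP signalling in endothelium, stood at 8.62, 8.70 and 8.45 on day 0 and at 8.08, 7.92 and 8.08 on day 1. It fell by 0.56 ± 0.09 (adjusted p = 9.22e-04), a 1.47-fold lower level, with no overlap between the groups. Id3 did not pass. Its day 0 arrays agreed at 10.22, 10.22 and 10.22, while its day 1 arrays were at 10.13, 10.25 and 10.37, on both sides of the day 0 values. Its change was 0.03 ± 0.07 (adjusted p = 0.770), with an interval of -0.14 to 0.20. Its sign turned under 2 of the alternatives given in the closing section. Id4 rose, from 9.45, 9.35 and 9.54 on day 0 to 9.91, 9.88 and 9.89 on day 1. The groups were 0.34 apart, and the change was 0.45 ± 0.07 (adjusted p = 8.60e-04), a 1.36-fold rise.

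Because the Id genes went different ways, the difference of 2 genes was also taken within each array, which removes any shift common to that array. A change of such a difference shows unequal change and says nothing of which gene is more abundant. Standard errors of these changes come from the arrays of the pair alone and not from limma. They therefore do not compare with the standard errors of single genes. The 13 pairs were compared between the groups by an exact permutation test (two-sided), in which 3 arrays against 3 cannot give a p below 0.10. The groups did not overlap in 12 of the 13 pairs. Each of these was at the smallest p of this test (exact p = 0.10, and 0.108 adjusted over the 13 pairs), so none can pass 0.05. The share without overlap over all pairs of genes was not computed. Taken singly, 9 of the 10 members were already without overlap, and the pairs are made of the same values. Id2 minus Id4 was 1.26, 1.25 and 1.11 on day 0 and -0.70, -0.53 and -0.54 on day 1. The ratio of Id2 to Id4 was thus 3.48-fold lower on day 1. Id2 minus Id3 changed by -1.38 ± 0.05 and Id1 minus Id2 by 0.79 ± 0.13, the latter with Id2 falling further in these arrays. Id1 minus Id3 changed by -0.59 ± 0.12, Id1 minus Id4 by -1.01 ± 0.14 and Id3 minus Id4 by -0.42 ± 0.09. The day 0 and day 1 arrays were thus apart in all 6 pairs of Id genes.

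The same was done for ligands, antagonist and receptors. Bmp2 minus Bmp6 was -3.23, -3.72 and -3.25 on day 0 and -0.03, 0.04 and -0.18 on day 1. The ratio of Bmp2 to Bmp6 was 10.1-fold higher on day 1 (change 3.34 ± 0.17). Bmp6 minus Grem1 was 4.86, 4.76 and 4.87 on day 0 and 1.36, 1.31 and 1.44 on day 1. This was the largest change of any of the 13 pairs, and the ratio of Bmp6 to Grem1 was 11.0-fold lower (change -3.46 ± 0.05). Bmp4 minus Grem1 changed by -1.90 ± 0.09, a 3.72-fold lower ratio. Bmp2 minus Bmp4 changed by 1.78 ± 0.14 and Bmp4 minus Bmp6 by 1.56 ± 0.06. In these arrays Grem1 thus rose relative to Bmp4 and Bmp6. Other antagonist genes, described below, went both ways and were not paired with ligands. Bmp2 minus Grem1 was the pair that overlapped, at 1.63, 1.04 and 1.62 on day 0 and 1.33, 1.35 and 1.26 on day 1. Its change was -0.12 ± 0.20 (exact permutation p = 0.60), so a difference between the rises of Bmp2 and Grem1 was not detectable with these arrays. That value rests on single day 0 arrays: it was -0.31, with the groups apart, without day 0 replicate 2, -0.018 without day 0 replicate 1 and -0.025 without day 0 replicate 3. Bmpr1a minus Bmpr2 changed by -0.36 ± 0.09, with the groups apart at the smallest p that the test allows.

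**Figure D3:**
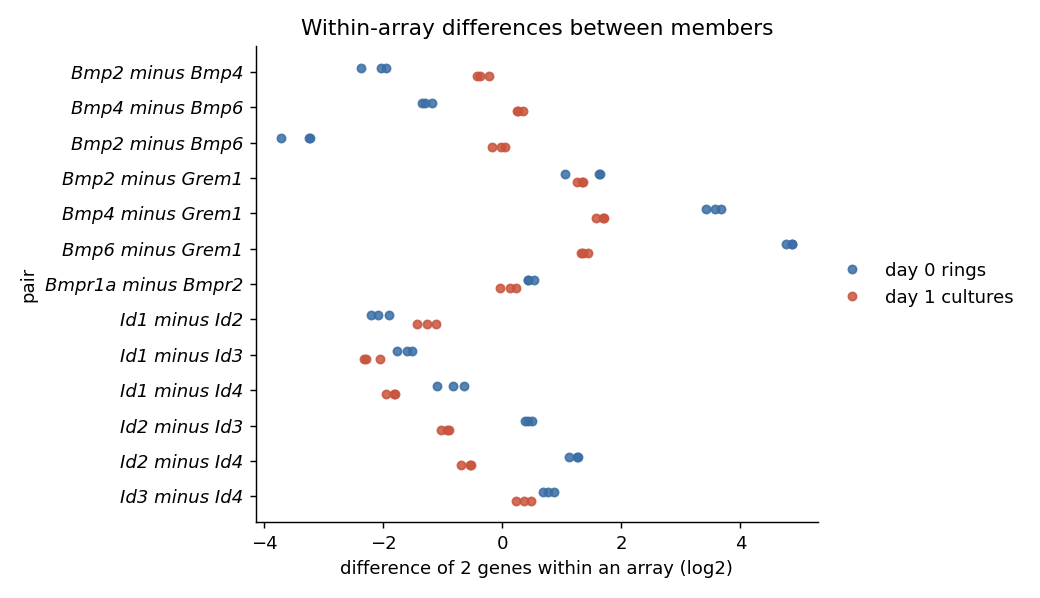
Difference of 2 members within an array (log2, horizontal axis) for 13 pairs (vertical axis); each point is an array. Day 0 and day 1 arrays are apart in every pair except Bmp2 minus Grem1, and are farthest apart in Bmp6 minus Grem1.

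The sequences just before the starts of the Id genes and of Grem1 are shown because the 4 Id genes share a pathway but changed by different amounts, and Grem1 had the largest rise. They are RefSeq sequences of build GRCr8, bases 250 to 41 before the annotated start, 5′ to 3′ on the gene's strand. Capitals mark matches on either strand to GGCGNC, the core of a BMP-responsive element, or to CAGAC, the Smad box.
Id1 (chr3:161671314-161671523, plus strand): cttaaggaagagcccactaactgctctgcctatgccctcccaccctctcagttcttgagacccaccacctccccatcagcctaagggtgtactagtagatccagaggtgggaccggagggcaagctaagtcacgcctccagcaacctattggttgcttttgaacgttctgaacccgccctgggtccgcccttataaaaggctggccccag
Id2 (chr6:47471036-47471245, minus strand): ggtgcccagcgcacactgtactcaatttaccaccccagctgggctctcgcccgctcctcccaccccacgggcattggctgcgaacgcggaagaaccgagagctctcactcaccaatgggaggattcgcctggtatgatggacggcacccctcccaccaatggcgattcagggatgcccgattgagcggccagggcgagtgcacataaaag
Id3 (chr5:153656041-153656250, plus strand): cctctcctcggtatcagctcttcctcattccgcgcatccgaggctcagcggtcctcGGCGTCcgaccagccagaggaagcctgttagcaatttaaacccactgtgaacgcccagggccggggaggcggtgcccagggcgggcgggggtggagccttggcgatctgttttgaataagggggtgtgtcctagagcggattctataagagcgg
Id4 (chr17:16598334-16598543, minus strand): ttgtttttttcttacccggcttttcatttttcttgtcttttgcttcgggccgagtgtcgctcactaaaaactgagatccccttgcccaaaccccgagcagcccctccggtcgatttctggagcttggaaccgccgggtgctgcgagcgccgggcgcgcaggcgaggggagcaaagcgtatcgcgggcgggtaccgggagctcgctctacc
Grem1 (chr3:120978360-120978569, minus strand): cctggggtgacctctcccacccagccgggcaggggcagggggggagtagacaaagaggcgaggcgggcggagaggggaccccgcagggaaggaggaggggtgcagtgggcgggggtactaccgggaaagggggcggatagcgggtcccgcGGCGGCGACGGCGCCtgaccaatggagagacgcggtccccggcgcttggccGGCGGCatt

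Promoter sequences were matched for 9 of the 10 members: the 5 genes shown, Bmp4, Bmp6, Bmpr1a and Bmpr2. The windows of Bmp4, Bmp6 and Bmpr2 overlap the annotated span of the gene itself, so they are not wholly upstream of it. A match of letters is a description and not a binding site. Only bases 250 to 41 before the start were searched, so a window without a match says nothing of sites elsewhere. The core occurred once in Id3, 194 to 189 bases before the start, once in Bmpr2 and 4 times in Grem1. In Grem1 matches overlap, and the one 91 to 86 bases before the start is the palindromic form GGCGCC. The core was found in 24.4% and its palindromic form in 7.0% of 33469 promoter windows of the same length. The Grem1 window had a GC content of 73.8%, against a median of 51.0% over all windows. The Smad box, held by 37.8% of all windows, was in none of the 5 windows shown and occurred once in Bmp4. The E-box, CANNTG, is the site of E proteins and was held by 59.5% of windows. It was found once in Id2, 215 to 210 bases before the start, with no overlap with another match, and in none of the other 4 windows shown.

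The other genes of the pathway were followed through 6 lists holding 66 genes, of which 56 were measured. Of these 56 genes 34 passed, 8 rising and 26 falling, beside 27.6% and 20.7% of all genes, and their median change was -0.28. Of the other ligand genes 4 of 7 measured passed, beside 48.3% of all genes. Bmp3, whose product opposes other BMPs in bone, fell from 8.48 ± 0.20 (SD, n = 3) to 6.56 ± 0.29 (SD, n = 3), by 1.92 ± 0.16. Bmp7 (-0.58 ± 0.08) and Bmp8a (-0.33 ± 0.07) also fell. Bmp7 had means of 5.46 and 4.88 and Bmp8a of 5.88 and 5.55 on day 0 and day 1. At such dim values the sizes of these falls are less certain. Gdf6, a growth and differentiation factor known from joint and eye development, rose by 0.93 ± 0.08. Bmp10 and Gdf2, which encode the circulating ligands BMP10 and BMP9, did not pass. Both rows were dim, with means of 3.74 and 3.57 for Bmp10 and 5.36 and 5.27 for Gdf2 on day 0 and day 1. Their not passing therefore does not show steady expression.

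Of 7 other receptor and coreceptor genes 3 fell and 2 rose, beside 20.7% and 27.6% of all genes. The type I receptor genes Acvrl1 (-0.82 ± 0.08), Acvr1 (-0.51 ± 0.07) and Bmpr1b (-0.45 ± 0.07) fell, as Bmpr1a did. Acvrl1 encodes ALK1, the endothelial receptor for BMP9 and BMP10. The type II receptor gene Acvr2b (0.28 ± 0.06) and the coreceptor gene Rgma (0.41 ± 0.07) rose, while the type II gene Bmpr2 fell. With Bmpr1a and Bmpr2, 5 receptor genes fell, each by less than 2-fold.

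Of 10 measured Smads and inhibitors of the pathway 4 fell and 2 rose, beside 20.7% and 27.6% of all genes. Smad6, an inhibitory Smad and itself a BMP target, stood at 9.03, 9.05 and 8.92 on day 0 and at 7.66, 7.48 and 7.52 on day 1. It fell by 1.45 ± 0.07 (adjusted p = 2.04e-06), the largest change of its list. The inhibitory Smad gene Smad7 fell by 0.68 ± 0.08 and the pseudoreceptor gene Bambi by 0.71 ± 0.12. Smad1, a receptor-activated Smad gene, rose by 0.37 ± 0.08 and the ubiquitin ligase gene Smurf2 by 0.24 ± 0.07. Smurf2 missed the threshold under 5 alternatives. Smad4, the common partner, was at 0.09 ± 0.06 and did not pass.

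Other secreted antagonists and modulators fell in 7 of 13 cases and rose in 2, beside 20.7% and 27.6% of all genes. Of the 13, 5 both passed and changed at least 2-fold, as did 8.24% of all genes. The chordin-like genes Chrdl2 and Chrdl1, whose products bind BMPs, fell by 2.71 ± 0.07 and 1.49 ± 0.08. Chrdl2 had the largest change of all 56 pathway genes, with day 0 values of 7.82, 7.84 and 7.82 and day 1 values of 5.17, 5.19 and 5.00. These day 1 values were dim, so the size of its fall is less certain. Fstl3, which binds activins and some BMPs, fell by 2.07 ± 0.07. Nbl1, an antagonist gene of the same DAN family as Grem1, rose by 1.07 ± 0.06. Tll1, which encodes a protease that cleaves chordin, rose by 1.05 ± 0.06 from a dim mean of 4.39 on day 0. Bmp1, which encodes a related chordin-cleaving protease, fell by 0.58 ± 0.06. The chordin gene Chrd fell by 0.90 ± 0.06. The antagonist genes past the threshold thus did not share a direction: Grem1 and Nbl1 rose, and Chrd, Chrdl1 and Chrdl2 fell. Another 4 genes of the list did not pass.

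Of all genes 20.7% fell and 27.6% rose past the threshold. Of 14 other target genes 10 fell and 0 rose by limma (1 rose at an unadjusted p under 0.05), with a median change of -0.61. That gene, the osteoblast factor gene Runx2, at 0.20 ± 0.07 (adjusted p = 0.0614), was the only one of the 14 with a positive change. It passed with median centring (0.24, adjusted p = 0.0304) and without the dimmest 25% of genes (adjusted p = 0.0360). Besides Smad6, Smad7 and Bambi, which stand in this list too, the transcription factor genes Gata2 (-1.11 ± 0.09), Atoh8 (-0.74 ± 0.06) and Msx1 (-0.73 ± 0.12) fell, as did Tmem100 (-0.97 ± 0.12), a target of ALK1 signalling in endothelium. Id1 and Id2 moved in the direction of this list, while Id4 moved against it. Of 8 measured E proteins and related partners of Id proteins 1 rose and 2 fell. With 48.3% of all genes past the threshold, this count does not set the list apart. Tcf4, an E protein gene, stood at 9.15, 8.97 and 9.03 on day 0 and at 10.01, 9.97 and 10.10 on day 1, a rise of 0.98 ± 0.07 (adjusted p = 1.47e-05). The other E protein genes, Tcf3 (0.10 ± 0.07) and Tcf12 (0.09 ± 0.06), did not pass. Twist2 (-0.39 ± 0.06) and Lyl1 (-0.36 ± 0.09) fell.

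**Figure D4:**
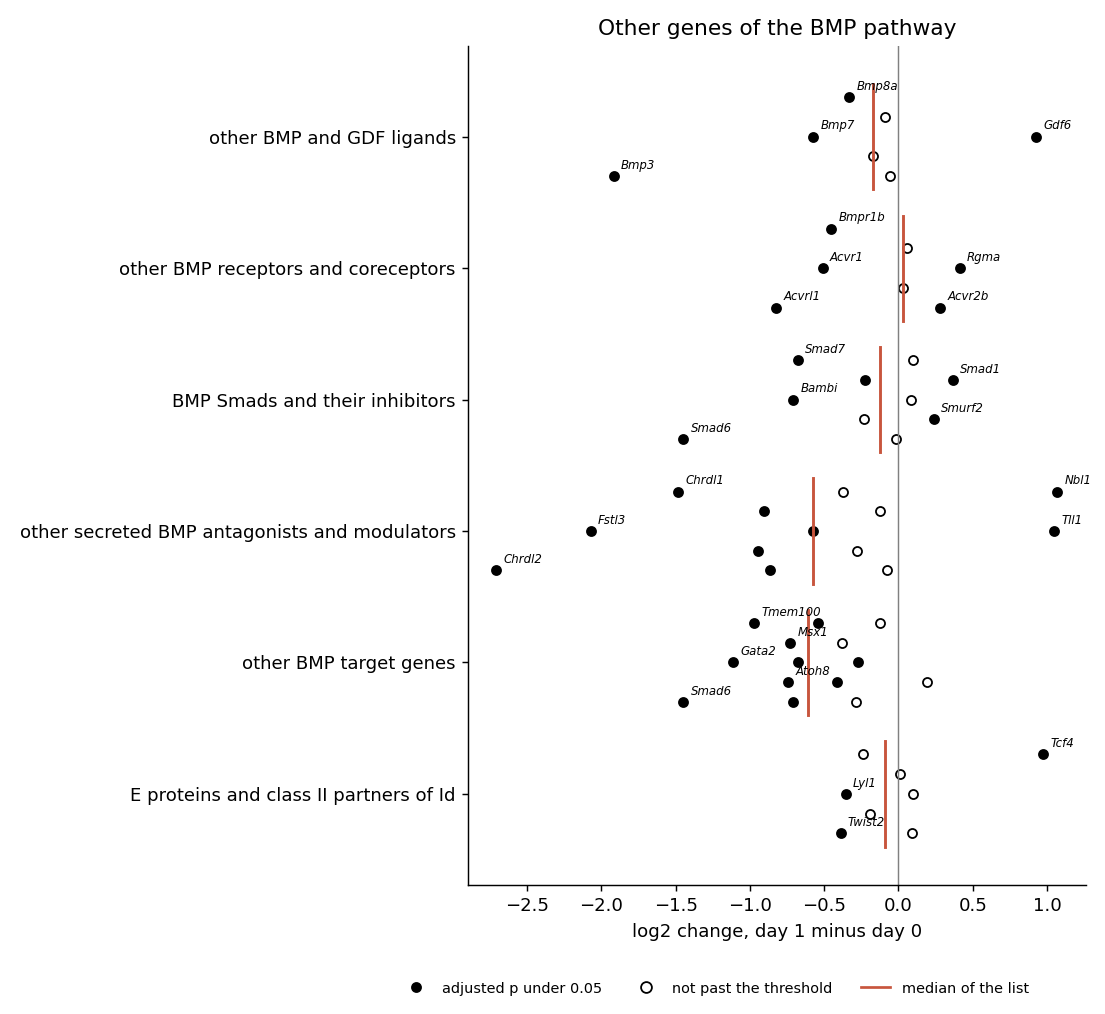
Log2 change (day 1 minus day 0, horizontal axis) of each measured gene in 6 lists of the BMP pathway (vertical axis, points spread vertically for legibility); filled points had an adjusted p under 0.05 and red lines are list medians. All 10 target genes past the threshold lie below 0, and antagonists lie on both sides. Bambi, Smad6 and Smad7 stand in 2 lists.

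The rings hold several cell types, and in bulk RNA fewer cells of a type and less RNA per cell cannot be told apart. Counts of markers stand beside 27.6% of all genes rising and 20.7% falling past the threshold. The day 0 rings carried transcripts of contractile smooth muscle, with the calponin gene Cnn1 at 12.59 ± 0.03 (SD, n = 3). All 9 measured markers of contractile smooth muscle fell (median -2.82), and the log2 of their summed linear values went from 15.07 to 15.11 on day 0 to 11.87 to 12.05 on day 1. Of 9 endothelial markers 7 rose and 2 fell (median 0.37), with summed levels of 11.49 to 11.69 and 11.67 to 11.77. The largest rises were those of Egfl7 (0.87 ± 0.10) and the endothelial cadherin gene Cdh5 (0.78 ± 0.11), and the markers that fell were the receptor gene Tek (-0.65 ± 0.06) and the adhesion gene Esam (-0.65 ± 0.08). Among 9 fibroblast markers 3 were higher and 5 lower past the threshold (summed levels 14.47 to 14.58 and 14.66 to 14.74), and among 10 macrophage markers 3 and 3 (11.55 to 11.61 and 11.53 to 11.70). Of 10 white adipocyte markers 7 were lower and 1 higher (10.62 to 10.77 and 10.29 to 10.40), and of 5 brown adipocyte markers 3 were lower (9.01 to 9.23 and 7.05 to 7.22). Skeletal and cardiac muscle markers numbered 6, with 3 lower and 1 higher (11.30 to 11.36 and 8.47 to 8.62). The day 0 sum rests mainly on Acta1 (mean 10.92 on day 0, 6.76 on day 1) and Ckm (8.83 and 6.79). The others had dimmer day 0 means of 4.34 to 6.24. Whether skeletal or cardiac muscle cells were present was not tested. Those of red cells and platelets numbered 4, with 3 lower and 1 higher (9.97 to 10.42 and 8.98 to 9.001). Lymphocyte markers numbered 4, with 1 lower (6.25 to 6.39 and 5.98 to 6.11). By limma 0 of 4 mesothelial, 0 of 6 neutrophil and 0 of 3 nerve markers passed, with 0, 0 and 0 at an unadjusted p under 0.05. Of the mesothelial markers 1 fell past the threshold without day 0 replicate 1 and without day 1 replicate 1. Of the neutrophil markers 1 fell past it without day 0 replicate 3 and 2 without day 1 replicate 1. The table gives no detection call, and none of its values is 0, so markers that were not expressed cannot be named. The part of these shifts in the changes of the members was not tested.

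**Figure D5:**
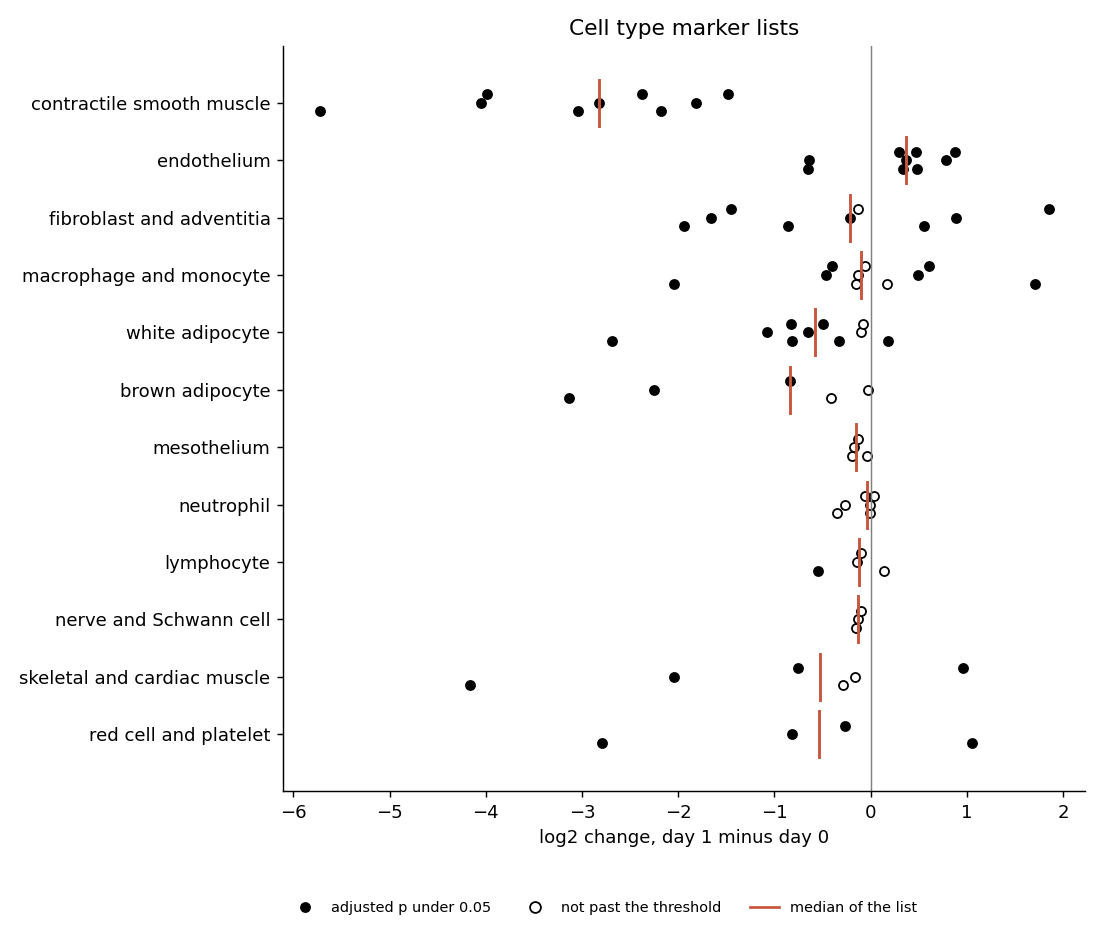
Log2 change (day 1 minus day 0, horizontal axis) of the measured markers of 12 cell types (vertical axis); filled points had an adjusted p under 0.05 and red lines are list medians. Smooth muscle markers all lie below -1 and 7 of the 9 endothelial markers lie above 0.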

How the data were processed

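The authors deposited log2 array values, 1 per row and array. The log2 scale was inferred from their range, 1.32 to 14.16. Per the submitters' processing notes limma was used. Background correction, normalisation and summary of arrays are steps not given in the sources used here. Medians of the 6 arrays were 5.87 to 5.95, and the values were used unscaled.

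Rows were named through the array annotation, with symbols updated by gene ID against a rat gene table of build GRCr8. The row with the highest mean was kept where a gene had several, giving 14324 genes from 27342 rows. The comparison of groups used R 4.3.3 and limma 3.58.1 (lmFit, eBayes, no trend, filter or block), which was tested on simulated data. Exact permutation tests used scipy 1.17.1. Lists are described by counts and medians, with no set test. The labels do not say that replicate numbers mark pairs, so same-numbered arrays of the 2 groups were not taken as pairs. Their deviations from the group means correlated at 0.01 to 0.04 over genes. Those of arrays with different numbers correlated at -0.05 to 0.04. These values cannot show whether 2 pools shared a rat or batch.

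The text names every member, up to 5 genes past the threshold with the largest changes in each pathway list with the largest against its majority, and up to 2 per marker list; others (Bmp10, Gdf2, Smad4, Bmp1, Chrd, Runx2, Tcf3, Tcf12, Tek, Esam) were added with their values known. The members and lists were chosen with earlier results of these data known. Of the pathway genes listed, 10 were not analysed here. Alternatives are in the closing section.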

Additional observations from a re-analysis of the deposited data

How the results depend on the processing

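Counts and named genes were recomputed under 16 alternatives, of which 6 leave out an array, and the within-array pairs under 9 of them. The 9 members past the threshold kept their direction and passed in every alternative in which they were tested. Grem1 was not tested without genes under the median mean, where 8 of 9 members passed. Id3 passed in none (adjusted p 0.353 to 0.825); its change turned to -0.050 with quantile normalization (adjusted p = 0.620) and to -0.032 without day 1 replicate 3 (adjusted p = 0.752), and the changes without 1 array ran from -0.032 to 0.090. The cause was not tested. The pathway genes past the threshold numbered 32 to 36 except without genes under the median mean, where 29 of the 56 were tested and 22 passed. The range without 1 array was 32 to 33. All genes past the threshold numbered 6166 to 6506 without 1 array. With the replicate number as a replicate block the counts were 6686 genes, 9 members and 36 pathway genes, and no member's call changed. Smurf2 missed the threshold with quantile normalization (0.13), with the most variable row of the gene (0.22), and without day 0 replicate 2 (0.19), day 1 replicate 2 (0.23) or day 1 replicate 3 (0.23). Of the genes that did not pass, Gdf2 turned to 0.042 without day 0 replicate 3 and to 0.0054 without day 1 replicate 2 (range without 1 array -0.21 to 0.042), and Tcf12 to -0.012 with quantile normalization. Of the target genes 9 fell and 1, Runx2, rose with median centring. Marker lists lost calls without genes under the median mean, where fewer genes were tested, and 1 neutrophil marker fell with the replicate block. The Bmp4 minus Grem1 and Bmp6 minus Grem1 changes were -2.04 and -3.60 with quantile normalization. The pairs without overlap numbered 12 to 13 without 1 array; without day 0 replicate 2 Bmp2 minus Grem1 did not overlap either. Dim rows such as Grem1 on day 0 limit what these arrays resolve.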
